A study of Homo sapiens with 6 samples.

Results

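CFPAC-1 cells, an established human line from a pancreatic ductal adenocarcinoma, were compared between cells with a guide RNA targeting SULF2 (sgRNA1, libraries S1_1 and S1_2) and control cells whose guide targets the bacterial gene LACZ (libraries LACZ_1 and LACZ_2). These are 4 of the 6 RNA-seq libraries of the study. The other 2 carry a different SULF2 guide (sgRNA3, S3_1 and S3_2) and entered the statistical model only as a further estimate of the spread between libraries. All 6 libraries share the cell line and the TRIzol extraction of total RNA, and every library carries a guide, so no library of cells without a guide was compared. Genes with at least 1 TPM (transcript abundance adjusted for length and scaled to the same sum in each library) in at least 2 of the 4 libraries were tested, which kept 15953 of 59962 genes. The labels call both conditions knockdowns. They do not say whether the guides cut or repress the gene, where in SULF2 the guide lies, whether the cells were clones or pools, or whether replicate libraries stem from separate cultures. The p-values therefore measure only the spread between these libraries, which may be technical.

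SULF2 is an extracellular sulfatase. It cleaves 6-O-sulfates off heparan sulfate, the sugar chain carried by syndecans, glypicans and perlecan at the cell surface and in the matrix. Those sulfates form part of the binding sites for growth factors such as FGF, VEGF and heparin-binding EGF-like factor, and their removal can release bound ligands or break up ligand and receptor complexes. SULF1 is the only other human enzyme of this kind.

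Groups differed more between than within themselves. The median absolute difference of a gene's log2(TPM + 1) was 0.133 between the LACZ libraries and 0.147 between the sgRNA1 libraries, against 0.221 to 0.248 for a pair from both groups. TPM values carry no read numbers, so sequencing depth is unknown here. Of 10 markers of duct epithelium, 9 were at 1 TPM or more in at least 2 of the libraries. CFTR, the chloride channel of duct cells, stayed under 1 TPM in all 4. The summed level of the 10 duct markers, most of it keratins, was 9267 and 9095 TPM with LACZ and 8238 and 8054 TPM with sgRNA1. Of the markers of other pancreatic cells, 10 of 12 acinar, 8 of 10 islet, 7 of 11 fibroblast, 6 of 9 endothelial and 7 of 11 leukocyte genes stayed under 1 TPM in all 4 libraries. Not all were low: the leukocyte marker CD68 had a mean of 90.1 TPM over the 4 libraries and the fibroblast marker COL1A1 65.4 TPM. The highest means of the acinar, islet and endothelial markers were 3.45, 1.09 and 3.84 TPM.

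SULF2 itself, on chromosome 20 from position 47656348 to 47786616 on the minus strand (GRCh38, GENCODE 29), was measured at 25.7 and 22.5 TPM in LACZ_1 and LACZ_2 and 8.98 and 12.8 TPM in S1_1 and S1_2. The means were 24.1 ± 2.24 (SD, n = 2) and 10.9 ± 2.71 (SD, n = 2), so 45.2% of the control level remained (log2 change -1.09, SE 0.18, adjusted p = 0.0311). Both sgRNA1 libraries were below both control libraries. The exact two-sided permutation test of these 2 against 2 libraries gave p = 0.333, the smallest value that this design allows. The call ended when LACZ_1, LACZ_2, S1_1, S3_1 or S3_2 was left out (adjusted p 0.0671 to 0.158) and held without S1_2. The level did not differ detectably between the guides (log2 difference 0.14, adjusted p = 0.751). SULF1 was listed at 0 in all 4 libraries.

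The rest of the heparan sulfate machinery showed no other call among its enzymes. Of 21 tested genes that build, modify or degrade the chain, SULF2 was the only one that passed, where 4.76% of all tested genes were called lower and 1.87% higher. The list's median log2 change was 0.07 against -0.07 over all tested genes. B3GALT6, which builds the linker between chain and core protein, was at 11.3 and 13.2 TPM with LACZ against 18.2 and 16.6 TPM with sgRNA1 (adjusted p = 0.0748). GLCE, the epimerase that turns glucuronic into iduronic acid, was at 26.1 and 25.3 TPM with LACZ against 31.5 and 31.3 TPM with sgRNA1 (adjusted p = 0.0937). Neither passed, although both pairs of libraries were apart, as they were for 19.9% of all tested genes in the higher direction and 36.0% in the lower. Under median-of-ratios scaling and under quantile normalization 2 genes of the list were called higher. Among 12 tested core proteins, only COL18A1, a basement membrane collagen that carries heparan sulfate, fell (75.5 and 74.3 TPM with LACZ against 57.7 and 55.2 TPM with sgRNA1; log2 change -0.40, SE 0.06, adjusted p = 0.0226). That call ended when any 1 of the 6 libraries was left out (adjusted p 0.0533 to 0.126).

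In all, 1058 genes (6.63%) differed between sgRNA1 and LACZ, 299 of them higher and 759 lower, and none had overlapping libraries. Most changes were small. The median log2 change was 0.44 among the genes called higher and -0.63 among those called lower, and 46 higher and 134 lower genes changed by at least 1. The 759 lower genes together held 92380 and 91270.4 TPM in the LACZ libraries and 62575 and 60920.0 TPM in the sgRNA1 libraries. The 299 higher genes held 69765 and 70224.5 TPM with LACZ and 88008 and 87268 TPM with sgRNA1. The direction of both shifts was fixed by choosing the genes for their change. The split between the directions moved with the scaling: 28.3% of the calls were higher as deposited, 51.7% under median-of-ratios scaling (658 higher, 614 lower) and 44.9% under quantile normalization (491 higher, 603 lower). All 299 higher genes and 607 of the 759 lower genes kept their calls under median-of-ratios scaling. Calls came mostly from abundant genes: among the 3988 genes with a mean of at least 37.8 TPM 4.89% were higher and 9.63% lower, against 0.326% and 0.652% of the 3989 genes with a mean of up to 4.37 TPM. Counts of list members given below stand beside these shares and beside 1.87% higher and 4.76% lower over all tested genes. Counts of all genes called depended on each library. They were 31 higher and 136 lower without LACZ_1, 38 and 178 without LACZ_2, 101 and 222 without S1_1, 60 and 141 without S1_2, 124 and 363 without S3_1, and 124 and 366 without S3_2. With every library left out in turn, 18 higher and 100 lower genes kept their calls in all 6 cases.

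**Figure D1:**
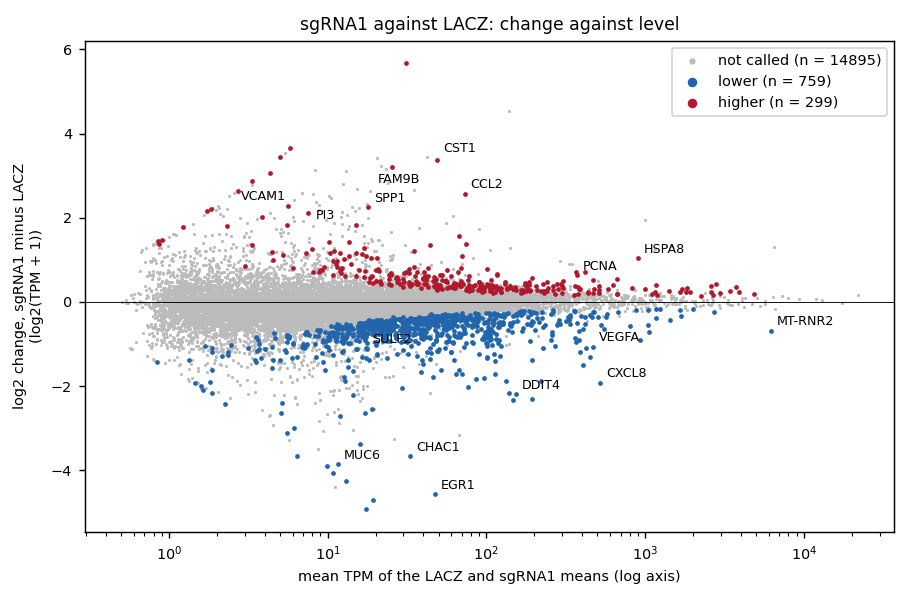
Log2 change (sgRNA1 minus LACZ, log2(TPM + 1) scale) of each of the 15953 tested genes against its mean TPM on a log axis. Red points are the 299 genes called higher, blue the 759 called lower, and the unlabelled called points farther out are mostly transcripts under clone or assembly names listed at 0 in one group.

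CST1 showed the largest increase among the named genes. This secreted inhibitor of cysteine proteases (cystatin SN) was measured at 11.2 and 5.24 TPM in LACZ_1 and LACZ_2 and 91.5 and 88.3 TPM in S1_1 and S1_2 (log2 change 3.38, SE 0.31, adjusted p = 0.00724). Its neighbours in the salivary cystatin cluster of chromosome 20 rose with it: CST2 from 5.52 and 6.51 to 23.6 and 24.3 TPM (log2 change 1.83, SE 0.18, adjusted p = 0.00808), and CST4 from 2.62 and 1.17 to 10.6 and 7.69 TPM (log2 change 1.84, SE 0.32, adjusted p = 0.0345). The 3 genes lie between positions 23685640 and 23826731 (GRCh38) and are close copies, so their reads may have been shared among them. CCL2, the chemokine that attracts monocytes, had 18.3 and 22.7 TPM with LACZ against 124 and 128 TPM with sgRNA1 (log2 change 2.57, SE 0.12, adjusted p = 9.97e-04). VCAM1, an adhesion molecule for leukocytes, had 1.13 and 1.36 TPM with LACZ against 10.3 and 9.61 TPM with sgRNA1 (log2 change 2.29, SE 0.18, adjusted p = 0.00419). SPP1, the secreted phosphoprotein osteopontin, had 5.86 and 5.34 TPM with LACZ against 27.02 and 33.9 TPM with sgRNA1 (log2 change 2.25, SE 0.16, adjusted p = 0.00320). Like every gene called higher, these genes had both sgRNA1 libraries above both controls, an order that 19.9% of all tested genes showed. The calls of CCL2, VCAM1 and SPP1 held with every library left out. Calls ended for CST1 when S1_1 or S1_2 was left out (adjusted p 0.0558 to 0.0653), CST2 when LACZ_1, LACZ_2, S1_1 or S1_2 was left out (adjusted p 0.0538 to 0.0708), and CST4 when any 1 of the 6 libraries was left out (adjusted p 0.0693 to 0.129).

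Other genes among the 15 largest increases have varied known roles. FAM9B, next to CST1 in size, had 2.58 and 5.68 TPM with LACZ against 60.4 and 32.7 TPM with sgRNA1 (log2 change 3.22, SE 0.40, adjusted p = 0.0154), with a wide gap between its sgRNA1 libraries. PI3, the elastase inhibitor elafin, had 2.18 and 2.27 TPM with LACZ against 12.7 and 13.02 TPM with sgRNA1 (adjusted p = 0.00572). SPARC, a matricellular glycoprotein, had 0.300 and 1.76 TPM with LACZ against 7.59 and 5.85 TPM with sgRNA1 (adjusted p = 0.0438). UBD, a ubiquitin-like modifier that cytokines induce, and QPRT, an enzyme of NAD synthesis from tryptophan, also rose: UBD from 5.53 and 8.28 to 17.7 and 22.6 TPM (adjusted p = 0.0241), QPRT from 5.77 and 4.39 to 15.9 and 14.4 TPM (adjusted p = 0.0140). C4orf48, which encodes a small secreted peptide, had 24.3 and 24.1 TPM with LACZ against 61.6 and 66.04 TPM with sgRNA1 (adjusted p = 0.0155), and the heme-binding protein gene HEBP2 11.4 and 7.64 TPM with LACZ against 24.2 and 24.5 TPM with sgRNA1 (adjusted p = 0.0258). These calls did not hold with every library left out. They ended for FAM9B when LACZ_1, S1_1 or S1_2 was left out, and for PI3 when LACZ_1, LACZ_2 or S1_2 was. The QPRT and C4orf48 calls ended when LACZ_1, LACZ_2, S1_1 or S1_2 was left out. The SPARC call ended when LACZ_1, S1_1, S1_2, S3_1 or S3_2 was left out, and the HEBP2 call when LACZ_2, S1_1, S1_2, S3_1 or S3_2 was. The UBD call ended when any 1 of the 6 libraries was left out.

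EGR1 showed the largest decrease among the named genes. This immediate early transcription factor, induced by growth factor signalling, had 92.4 and 92.1 TPM in LACZ_1 and LACZ_2 and 3.38 and 2.54 TPM in S1_1 and S1_2 (log2 change -4.57, SE 0.14, adjusted p = 3.14e-04), so little of the control level was left in either sgRNA1 library. CHAC1, an enzyme that degrades glutathione and a target of ATF4, had 62.8 and 61.9 TPM with LACZ against 3.38 and 4.72 TPM with sgRNA1 (log2 change -3.66, SE 0.15, adjusted p = 6.99e-04). HBEGF, a heparin-binding ligand of the EGF receptor, had 251 and 239.8 TPM with LACZ against 48.5 and 46.8 TPM with sgRNA1 (log2 change -2.34, SE 0.05, adjusted p = 2.03e-04). The neutrophil chemokine CXCL2 had 314 and 327 TPM with LACZ against 64.1 and 63.9 TPM with sgRNA1 (log2 change -2.31, SE 0.05, adjusted p = 2.03e-04). Libraries of a group were close to each other in these 4 genes, and the 4 calls held with every library left out.

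Further genes of the 15 largest decreases have varied known roles. TNFSF18, the ligand of the receptor GITR, fell from 23.04 and 19.8 to 2.35 and 2.48 TPM (adjusted p = 0.00117). INHBA, the subunit of activin A, fell from 10.5 and 8.34 to 1.02 and 0.890 TPM (adjusted p = 0.00407). JUNB, an AP-1 subunit, fell from 49.3 and 46.5 to 10.6 and 11.2 TPM (adjusted p = 7.20e-04). SESN2 and DDIT4 encode inhibitors of the mTORC1 kinase pathway, and TXNIP encodes an inhibitor of thioredoxin and glucose uptake. SESN2 went from 24.7 and 23.9 to 4.42 and 4.43 TPM (adjusted p = 0.00120), DDIT4 from 248 and 257 to 53.3 and 55.5 TPM (adjusted p = 2.03e-04) and TXNIP from 232 and 224 to 49.6 and 49.8 TPM (adjusted p = 2.03e-04). These 3 were the only calls among 12 tested genes that restrain mTORC1. MUC6, a gel-forming mucin of stomach and pancreatic duct glands, had 33.1 and 12.3 TPM with LACZ against 0.590 and 0.350 TPM with sgRNA1 (adjusted p = 0.0137), with control libraries far apart. The zinc finger gene ZKSCAN7 had 15.97 and 7.61 TPM with LACZ against 0.630 and 0.430 TPM with sgRNA1 (adjusted p = 0.0142) and the pseudogene CHMP1B2P 46.1 and 14.1 TPM with LACZ against 2.54 and 0.860 TPM with sgRNA1 (adjusted p = 0.0359). The last 3 calls did not hold with every library left out. They ended for MUC6 when S1_1 or S1_2 was left out and for ZKSCAN7 when LACZ_1, S1_1 or S1_2 was. The CHMP1B2P call ended when LACZ_1, S1_1, S1_2, S3_1 or S3_2 was left out. Such fits also have fewer libraries to estimate the spread, so an ended call does not single out the library left out.

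**Figure D2:**
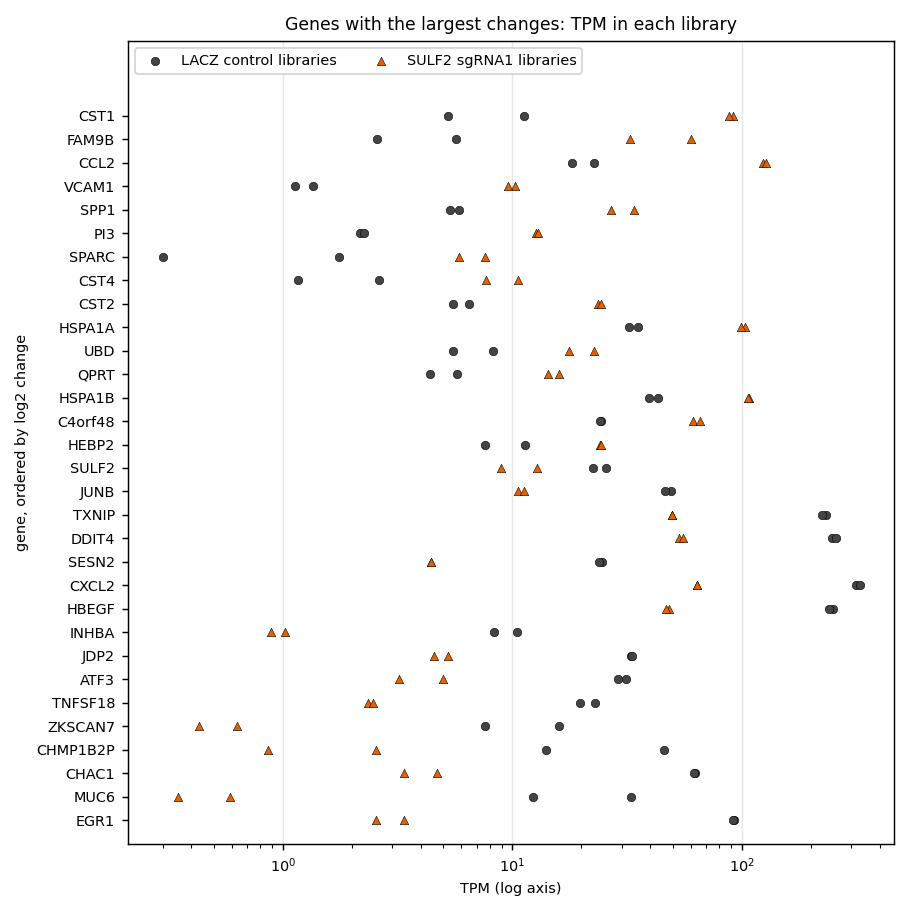
TPM in each of the 4 libraries, on a log axis, for SULF2 and the 15 genes with the largest increases and decreases by the naming rule, ordered by log2 change; grey circles are LACZ, orange triangles sgRNA1. For the 15 genes in each direction the naming rule required groups that do not overlap. The controls lie far apart in MUC6 and CHMP1B2P.

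Levels with sgRNA1 could also be set against those with the other SULF2 guide for the genes named here. Over all tested genes, 0.589% differed between the guides. Among the 201 named genes that differed from LACZ, 32 differed between the guides. They included 8 of the 15 genes with the largest increases and 3 of the 15 with the largest decreases. The named genes were chosen mostly by their change with sgRNA1, and the same sgRNA1 libraries enter both comparisons. The share among them can therefore not be compared with that of all tested genes. FAM9B (log2 difference 4.03, adjusted p = 0.0329), CST1 (2.85, 0.0399), VCAM1 (2.56, 0.0186), CCL2 (1.32, 0.0280) and SPP1 (1.63, 0.0325) were higher with sgRNA1 than with sgRNA3. CXCL2 (-0.68, 0.0186), HBEGF (-0.49, 0.0404) and TXNIP (-0.39, 0.0479) were lower. EGR1 (0.14, 0.686), CHAC1 (-0.47, 0.241) and HSPA1A (0.14, 0.479) did not pass this test, which does not show that the guides act alike on them.

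ATF4 is the transcription factor of the integrated stress response, made when amino acids are scarce or proteins misfold. It switches on feedback regulators, enzymes that make amino acids, amino acid transporters and tRNA synthetases, and binds composite elements of a C/EBP and a cAMP response half-site. Of 14 tested genes of this network, 12 fell and 1 rose, with a median log2 change of -1.52. ATF4 itself fell from 483 and 486 to 249.8 and 247 TPM (log2 change -0.96, SE 0.04, adjusted p = 6.03e-04). DDIT3 (CHOP), a partner that promotes cell death, fell from 105 and 110.1 to 30.4 and 33.5 TPM (log2 change -1.72, SE 0.07, adjusted p = 6.99e-04). The feedback regulators TRIB3, a pseudokinase, and PPP1R15A, which directs the phosphatase for eIF2α, fell too: TRIB3 from 148 and 153 to 41.6 and 42.3 TPM (log2 change -1.82, SE 0.05, adjusted p = 3.13e-04), PPP1R15A from 135 and 136 to 39.3 and 35.3 TPM (log2 change -1.83, SE 0.07, adjusted p = 5.41e-04). ATF3 and JDP2, which dimerise with other bZIP factors, went from 31.4 and 29.02 to 3.20 and 4.98 TPM (log2 change -2.64, SE 0.20, adjusted p = 0.00370) and from 33.1 and 33.1 to 4.56 and 5.25 TPM (log2 change -2.53, SE 0.12, adjusted p = 0.00102). GDF15, a secreted stress factor, went from 72.03 and 71.4 to 18.1 and 22.3 TPM (log2 change -1.79, SE 0.11, adjusted p = 0.00218). ATF5, another bZIP factor, rose from 18.9 and 18.8 to 32.5 and 29.4 TPM (adjusted p = 0.0137). The number lower was 10 without LACZ_1, 11 without S1_2 and 12 without LACZ_2, S1_1, S3_1 or S3_2. Calls ended for ATF3 when LACZ_1 was left out (adjusted p 0.0529), and ATF5 when LACZ_1, LACZ_2, S1_1 or S1_2 was left out (adjusted p 0.0536 to 0.0906).

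Sequence stretches from promoters of 3 such genes show the element that was searched for, TGATGNAAN on either strand, in capitals. They come from RefSeq (GRCh38.p14), run 5′ to 3′ on the gene's strand, and lie within the 250 bases before the RefSeq start: chr15:40953253-40953277 (plus strand) for CHAC1, chr7:97872460-97872484 (minus strand) for ASNS, and chr1:212565208-212565232 (plus strand) for ATF3. The CHAC1 match is on the opposite strand and overlaps the shorter core TTGCATCA. In GENCODE 29 the CHAC1 and ASNS stretches fall in an exon of at least 1 longer transcript.
CHAC1: cccctgccGTTGCATCActcctgcc
ASNS: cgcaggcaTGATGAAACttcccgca
ATF3: ggtcaggaTGATGGAAGgctgtcat
Promoter sequences were matched for 10318 of 12757 tested protein-coding genes, 291 of them through an older symbol. The element occurred in 140 of these promoters (1.36%) and in 2 of the 14 tested genes of the ATF4 network (14.3%). A match is no evidence of binding, and distant elements lie outside this window.

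Of 17 tested enzymes that make amino acids 12 fell and none rose, with a median log2 change of -0.90. ASNS, asparagine synthetase, fell from 126 and 121 to 29.02 and 30.2 TPM (log2 change -2.02, SE 0.08, adjusted p = 6.99e-04). The serine pathway enzymes PHGDH, PSAT1 and PSPH fell, PHGDH from 63.95 and 62.1 to 26.7 and 26.2 TPM (log2 change -1.22, SE 0.07, adjusted p = 0.00179), PSAT1 from 66.7 and 58.3 to 33.2 and 32.9 TPM (log2 change -0.90, SE 0.08, adjusted p = 0.00724) and PSPH from 83.4 and 79.2 to 41.7 and 40.9 TPM (log2 change -0.96, SE 0.06, adjusted p = 0.00179). MTHFD2, a mitochondrial enzyme of folate metabolism, fell from 155 and 157 to 81.3 and 76.96 TPM (log2 change -0.97, SE 0.05, adjusted p = 0.00126), and CTH, which makes cysteine, fell from 22.9 and 19.8 to 9.58 and 9.13 TPM (log2 change -1.11, SE 0.11, adjusted p = 0.00839). In all 6 genes both sgRNA1 libraries were below both controls, as in every gene called lower and in 36.0% of all tested genes. The count was 4 without S1_2, 5 without LACZ_1, 6 without LACZ_2 or S1_1 and 8 without S3_1 or S3_2. Calls ended for PSAT1 when S1_2 was left out (adjusted p 0.0619), and CTH when LACZ_1 or S1_2 was left out (adjusted p 0.0639 to 0.0669).

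Transporters and tRNA synthetases held calls in the lower direction. Of 12 tested amino acid transporters 6 fell (median -0.50). SLC7A5 and SLC3A2, the subunits of the large neutral amino acid exchanger, fell from 76.4 and 79.6 to 24.5 and 25.2 TPM (adjusted p = 6.01e-04) and from 309.6 and 305 to 148 and 140.3 TPM (adjusted p = 7.16e-04). SLC7A11, the cystine importer, fell from 23.9 and 23.98 to 9.53 and 8.67 TPM (adjusted p = 0.00365). SLC1A5, a glutamine carrier, fell from 127 and 132 to 81.4 and 74.6 TPM (adjusted p = 0.00585). Of 20 tested cytosolic tRNA synthetases 7 fell (median -0.22). CARS, the enzyme for cysteine, fell from 66.7 and 71.2 to 33.05 and 29.3 TPM (adjusted p = 0.00344), and GARS, for glycine, from 155 and 159 to 86.3 and 81.5 TPM (adjusted p = 0.00212). AARS, for alanine, fell from 143 and 148 to 91.1 and 80.1 TPM (adjusted p = 0.00754). The transporter count was 3 without LACZ_1 or LACZ_2 and 4 without S1_1, S1_2, S3_1 or S3_2, and the synthetase count 2 without LACZ_1, 3 without LACZ_2 or S1_2 and 5 without S1_1, S3_1 or S3_2. Calls ended for SLC1A5 and AARS when LACZ_1 or LACZ_2 was left out (adjusted p 0.0526 to 0.0689).

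The arm of the unfolded protein response in the endoplasmic reticulum that runs through ERN1 (IRE1) also held calls. ERN1, the sensor, fell from 19.5 and 20.1 to 7.33 and 6.76 TPM (log2 change -1.37, SE 0.10, adjusted p = 0.00370), and XBP1, the transcription factor whose messenger it splices, fell from 132 and 133 to 78.4 and 75.1 TPM (log2 change -0.78, SE 0.05, adjusted p = 0.00198). Of all tested genes 4.76% were called lower, and 9.63% of those with a mean of at least 37.8 TPM. ERN1 and XBP1 were the only 2 calls among 25 tested chaperones and regulators of that compartment (median log2 change -0.05), no result about the list. Both calls held with every library left out. Spliced and unspliced XBP1 are summed in these values. The chaperones proper held no call, and their levels lay in both directions. PDIA4, a disulfide isomerase, was at 342 and 341 TPM with LACZ against 319 and 306 TPM with sgRNA1 (adjusted p = 0.101). DNAJB11 was at 91.55 and 89.3 TPM with LACZ against 103 and 104 TPM with sgRNA1 (adjusted p = 0.0750). Both gaps were small and did not pass.

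Growth factor signalling through ERK induces immediate early genes within minutes and feedback inhibitors soon after. Of 23 tested immediate early and AP-1 genes 14 fell and none rose, with a median log2 change of -0.82. Besides EGR1, JUNB and ATF3, the transcription factor MYC fell from 281 and 283 to 107 and 109 TPM (log2 change -1.38, SE 0.05, adjusted p = 4.78e-04). KLF10, a zinc finger repressor, fell from 54.5 and 50.1 to 21.00 and 21.1 TPM (log2 change -1.27, SE 0.07, adjusted p = 0.00164), and MAFF, a small Maf protein, from 59.6 and 57.9 to 26.2 and 24.4 TPM (log2 change -1.18, SE 0.07, adjusted p = 0.00180). IER3, among the most abundant, fell from 1261 and 1169 to 649 and 649 TPM (log2 change -0.90, SE 0.04, adjusted p = 0.001001). The AP-1 subunits FOS and JUN did not pass. FOS was at 5.75 and 5.02 TPM with LACZ against 1.59 and 2.17 TPM with sgRNA1 (adjusted p = 0.0505) and JUN at 86.03 and 84.3 TPM with LACZ against 76.6 and 71.4 TPM with sgRNA1 (adjusted p = 0.0957). The count lower was 9 without LACZ_1 or LACZ_2, 10 without S1_2, 11 without S1_1 and 14 without S3_1 or S3_2.

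The EGR1 promoter is shown because it holds 2 serum response elements (in capitals), the sites through which serum response factor acts on many immediate early genes. The stretch is chr5:138465366-138465413 on the plus strand (RefSeq, GRCh38.p14).
EGR1: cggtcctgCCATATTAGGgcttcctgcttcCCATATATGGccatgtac
Such an element occurred in 102 of the 10318 promoters (0.989%), searched on both strands.

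Of 19 tested genes on a list of ERK feedback, 9 fell and 1 rose (median -0.58). The list holds inhibitors but also CCND1, the cytokine gene LIF and ETV transcription factors. ERRFI1, an inhibitor of the EGF receptor, fell from 355 and 339 to 97.4 and 90.2 TPM (log2 change -1.88, SE 0.06, adjusted p = 3.74e-04). The phosphatases DUSP5 and DUSP6, which act on ERK, fell from 67.9 and 68.4 to 30.2 and 29.9 TPM (log2 change -1.15, SE 0.06, adjusted p = 0.00117) and from 105 and 100.3 to 60.97 and 57.5 TPM (log2 change -0.78, SE 0.06, adjusted p = 0.00489). SPRY2, a Sprouty inhibitor of receptor signalling, fell from 71.97 and 71.3 to 42.1 and 39.8 TPM (log2 change -0.79, SE 0.06, adjusted p = 0.00345), and PHLDA1 from 146 and 141 to 58.6 and 56.6 TPM (log2 change -1.30, SE 0.05, adjusted p = 6.03e-04). CCND1, the cyclin D1 gene and the exception, rose from 169 and 171 to 209 and 203 TPM (adjusted p = 0.0203). The number lower was 4 without LACZ_1, 5 without LACZ_2, 6 without S1_1 or S1_2 and 8 without S3_1 or S3_2. Calls ended for DUSP6 when LACZ_1 was left out (adjusted p 0.0552), and CCND1 when any 1 of the 6 libraries was left out (adjusted p 0.0594 to 0.111).

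Among 13 tested ligands and receptors of the EGF receptor family 5 fell and none rose. Beside HBEGF, AREG (amphiregulin) had 588 and 604 TPM with LACZ against 207 and 213 TPM with sgRNA1 (log2 change -1.50, SE 0.04, adjusted p = 2.31e-04) and EREG (epiregulin) 554 and 529.7 TPM with LACZ against 246 and 227 TPM with sgRNA1 (log2 change -1.19, SE 0.05, adjusted p = 6.99e-04). Both were among the more abundant transcripts of the control cells, and their libraries agreed closely. TGFA fell from 88.99 and 94.1 to 72.2 and 66.5 TPM (adjusted p = 0.0353), and the receptor EGFR from 99.3 and 103 to 74.2 and 65.7 TPM (adjusted p = 0.0198). AREG (log2 difference -0.75, adjusted p = 0.0131) and EREG (-0.69, 0.0186) were also lower than with sgRNA3. Of the other heparin-binding factors and their receptors, 2 of 18 fell. VEGFA, the angiogenic factor, fell from 625 and 653 to 326 and 287 TPM (log2 change -1.06, SE 0.07, adjusted p = 0.00210), and PDGFB from 18.4 and 20.1 to 13.6 and 12.8 TPM (adjusted p = 0.0451). FGF2 was at 7.50 and 7.30 TPM with LACZ against 5.82 and 5.44 TPM with sgRNA1 (adjusted p = 0.151) and did not pass. The EGF family count was 3 without LACZ_1, LACZ_2, S1_2, S3_1 or S3_2 and 4 without S1_1. Calls ended for EGFR when LACZ_1, LACZ_2, S1_2, S3_1 or S3_2 was left out (adjusted p 0.0516 to 0.114), and TGFA and PDGFB when any 1 of the 6 libraries was left out (adjusted p 0.0686 to 0.178).

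YAP and TEAD, factors that respond to cell contact and tension, have their own target set. Here 8 of 18 tested targets fell and 1 rose (median -0.45). CCN1, a matricellular protein, fell from 472 and 465 to 263 and 256 TPM (adjusted p = 0.00117), and ANKRD1, a nuclear ankyrin repeat protein, from 1316 and 1297 to 817 and 776 TPM (adjusted p = 0.00111). AJUBA, a LIM protein of the pathway, fell from 163 and 183 to 69.9 and 71.4 TPM (adjusted p = 0.00133), and AMOTL2, an inhibitor of YAP, from 83.2 and 84.9 to 48.1 and 44.9 TPM (adjusted p = 0.00316). F3, tissue factor, fell from 988 and 926 to 645 and 644 TPM (adjusted p = 0.00293) and was lower than with sgRNA3 (log2 difference -0.56, adjusted p = 0.0186). NT5E (CD73) rose from 112 and 105 to 137 and 130.4 TPM (adjusted p = 0.0342), a call that ended when any 1 of the 6 libraries was left out (adjusted p 0.0796 to 0.137). The other 5 calls held in every case, and the list's count lower was 7 without LACZ_1 and 8 otherwise.

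Of 23 tested genes of the TGF-beta and BMP pathways 5 fell and none rose. They included the ligand TGFB2, from 172 and 169 to 115 and 112 TPM (log2 change -0.58, SE 0.04, adjusted p = 0.00370), and the repressor TGIF1, from 98.05 and 99.1 to 65.3 and 63.9 TPM (log2 change -0.60, SE 0.05, adjusted p = 0.00576), besides INHBA and GDF15. BMP4 was at 77.5 and 77.2 TPM with LACZ against 94.02 and 91.1 TPM with sgRNA1 (adjusted p = 0.0776) and did not pass. The count was 3 without LACZ_1 or LACZ_2 and 4 without S1_1, S1_2, S3_1 or S3_2, and the TGIF1 call ended when LACZ_1 or LACZ_2 was left out (adjusted p 0.0539 to 0.0586).

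**Figure D3:**
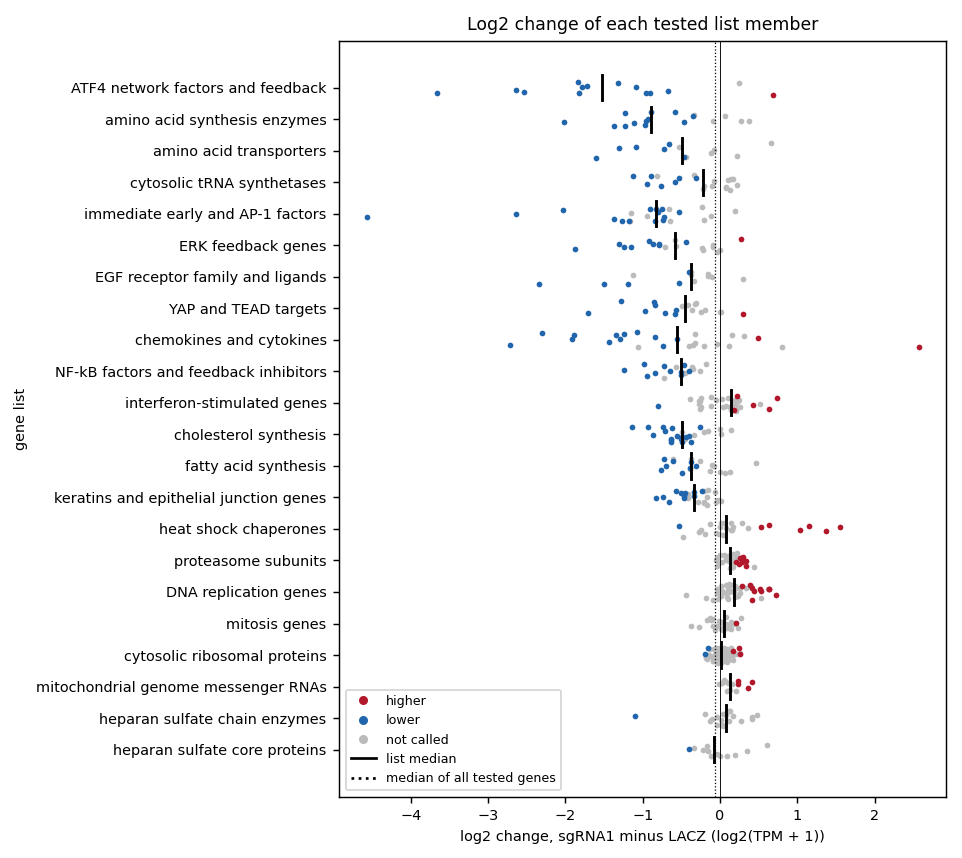
Log2 change (sgRNA1 minus LACZ) of each tested member of 22 gene lists; red and blue points passed the test, black bars are list medians and the dotted line is the median of all tested genes (-0.07). The ATF4 network, at a median of -1.52, lies farthest to the left, and heat shock chaperones, proteasome subunits and DNA replication genes hold most red points.

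Cytokines were called in both directions. Of 25 tested chemokines and cytokines 12 fell and 2 rose (median -0.56). CXCL8, the neutrophil chemokine interleukin-8, fell from 868 and 786 to 221 and 216 TPM (log2 change -1.92, SE 0.06, adjusted p = 3.13e-04). CXCL3, of the same family, fell from 647 and 637 to 261 and 259 TPM (log2 change -1.30, SE 0.03, adjusted p = 2.29e-04). Not all CXCL genes fell. CXCL5 was at 1506 and 1351 TPM with LACZ against 1578 and 1590 TPM with sgRNA1 (adjusted p = 0.162). CXCL6 was at 296 and 261 TPM with LACZ against 334 and 355 TPM with sgRNA1 (adjusted p = 0.0654), and neither passed. IL6 fell from 209 and 211 to 58.5 and 53.4 TPM (log2 change -1.89, SE 0.06, adjusted p = 3.14e-04). LIF, a cytokine of the IL6 family, fell from 157 and 156 to 71.4 and 60.4 TPM (log2 change -1.24, SE 0.10, adjusted p = 0.00504). CXCL8 (log2 difference -0.60, adjusted p = 0.0293), CXCL3 (-0.41, 0.0197) and IL6 (-0.88, 0.0186) were lower than with sgRNA3. Against them stood CCL2, described above, and TNFSF15, a ligand of the TNF family, which rose from 38.4 and 37.6 to 55.1 and 52.3 TPM (adjusted p = 0.0150). The count lower was 7 without LACZ_1 or LACZ_2, 9 without S1_2, 10 without S1_1 and 11 without S3_1 or S3_2. The count higher was 1 without LACZ_1, LACZ_2, S1_1 or S1_2 and 2 without S3_1 or S3_2. Calls ended for LIF when LACZ_1 or LACZ_2 was left out (adjusted p 0.0511 to 0.0590), and TNFSF15 when LACZ_1, LACZ_2, S1_1 or S1_2 was left out (adjusted p 0.0639 to 0.0932).

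NF-kB drives many of these cytokines and its own inhibitors. Of 17 tested factors and feedback inhibitors 10 fell and none rose (median -0.51). TNFAIP3 (A20), a ubiquitin-editing inhibitor, fell from 122 and 132 to 56.3 and 49.6 TPM (log2 change -1.25, SE 0.08, adjusted p = 0.00227), and BIRC3, an inhibitor of cell death, from 85.7 and 77.7 to 40.2 and 41.1 TPM (log2 change -0.99, SE 0.08, adjusted p = 0.00385). TNFAIP2 fell from 314 and 329 to 198 and 190.2 TPM (log2 change -0.72, SE 0.04, adjusted p = 0.00183). NFKBIA, the inhibitor IκBα, fell from 168 and 171 to 122 and 116 TPM (log2 change -0.51, SE 0.05, adjusted p = 0.00705). The count was 3 without LACZ_1, 4 without LACZ_2, 5 without S1_2, 7 without S3_1 or S3_2 and 8 without S1_1. The NFKBIA call ended when LACZ_1 or LACZ_2 was left out (adjusted p 0.0581 to 0.0617).

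Of 35 tested interferon-stimulated genes, which cells switch on against viruses, 5 rose and 1 fell, with a median log2 change of 0.15. IFIT1, which binds foreign RNA, rose from 39.95 and 39.04 to 62.2 and 61.3 TPM (log2 change 0.63, SE 0.07, adjusted p = 0.00974), IFI44L from 15.9 and 15.1 to 25.2 and 27.98 TPM (log2 change 0.74, SE 0.10, adjusted p = 0.0192) and IFI6 from 245 and 231 to 308 and 329 TPM (log2 change 0.42, SE 0.05, adjusted p = 0.0148). ISG15, a ubiquitin-like modifier, rose from 617 and 623 to 687 and 719 TPM (log2 change 0.18, SE 0.04, adjusted p = 0.0487), and IFI27, one of the most abundant transcripts, from 2692 and 2829.9 to 3166 and 3238 TPM (log2 change 0.21, SE 0.03, adjusted p = 0.0269). IFIT1 (log2 difference -0.84, adjusted p = 0.0186), IFI44L (-0.87, 0.0425), IFI6 (-0.74, 0.0186) and ISG15 (-0.71, 0.0131) were lower than with sgRNA3. IRF1, a transcription factor of the same response, fell from 125 and 122 to 74.4 and 66.6 TPM (log2 change -0.81, SE 0.10, adjusted p = 0.0142). Of 17 genes of MHC class I and peptide loading, B2M rose from 3671 and 3539 to 4231 and 4229 TPM (log2 change 0.23, SE 0.03, adjusted p = 0.0142) and HLA-C from 1122 and 1129 to 1281 and 1243 TPM (log2 change 0.17, SE 0.03, adjusted p = 0.0342), while HLA-B, at 713 and 819.7 TPM with LACZ against 638 and 572 TPM with sgRNA1, did not pass (adjusted p = 0.109). HLA genes are close copies of each other. The interferon count higher was 0 without LACZ_1, LACZ_2 or S1_2, 1 without S1_1 and 3 without S3_1 or S3_2, and 10 under median-of-ratios scaling. Calls ended for IFI6 when LACZ_1, LACZ_2 or S1_2 was left out (adjusted p 0.0655 to 0.0866), IFIT1, IFI44L, IRF1 and B2M when LACZ_1, LACZ_2, S1_1 or S1_2 was left out (adjusted p 0.05001 to 0.109), and ISG15, IFI27 and HLA-C when any 1 of the 6 libraries was left out (adjusted p 0.0580 to 0.185).

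Cholesterol synthesis is governed by SREBF2, which induces the enzymes of the pathway, LDL uptake and its own brake INSIG1 when sterols are low. Of 25 tested genes 17 fell and none rose, with a median log2 change of -0.50. INSIG1, which holds the SREBP factors in the endoplasmic reticulum, fell from 79.8 and 73.5 to 39.6 and 39.4 TPM (log2 change -0.94, SE 0.06, adjusted p = 0.00307). Among the enzymes, IDI1, which isomerises isopentenyl diphosphate, fell from 106 and 95.5 to 70.8 and 71.6 TPM (log2 change -0.50, SE 0.07, adjusted p = 0.0184), and FDFT1, which makes squalene, from 129 and 116 to 74.97 and 72.5 TPM (log2 change -0.72, SE 0.07, adjusted p = 0.00720). SQLE, which oxidises squalene, fell from 32.9 and 29.5 to 20.4 and 19.2 TPM (log2 change -0.63, SE 0.09, adjusted p = 0.0208), and MSMO1, a demethylase of methyl sterols, from 85.9 and 82.9 to 49.8 and 50.4 TPM (log2 change -0.74, SE 0.05, adjusted p = 0.00307). Like every gene called lower, these genes had both controls above both sgRNA1 libraries, an order that 36.0% of all tested genes showed. INSIG1 (log2 difference -0.66, adjusted p = 0.0329) and MSMO1 (-0.45, 0.0414) were also lower than with sgRNA3.

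The number of cholesterol genes called lower depended on every library, at 2 without S1_2, 3 without LACZ_1, 4 without LACZ_2, 5 without S3_1 or S3_2 and 7 without S1_1. Among the genes described above, INSIG1 and MSMO1 held in every case, and calls ended for FDFT1 when S1_2 was left out (adjusted p 0.0615), IDI1 when LACZ_1, S1_1 or S1_2 was left out (adjusted p 0.0834 to 0.0965), and SQLE when any 1 of the 6 libraries was left out (adjusted p 0.0542 to 0.111). Fatty acid synthesis showed 8 of 19 tested genes lower and none higher (median -0.38). SCD, the desaturase that makes oleate, fell from 209 and 206 to 131 and 124 TPM (log2 change -0.70, SE 0.04, adjusted p = 0.00226), and ACSL4, which activates long-chain fatty acids, from 92.4 and 92.1 to 52.98 and 57.6 TPM (log2 change -0.73, SE 0.06, adjusted p = 0.00519). FASN, fatty acid synthase, fell from 83.4 and 93.9 to 56.4 and 47.6 TPM (log2 change -0.76, SE 0.12, adjusted p = 0.0269). The count was 1 without LACZ_1 or LACZ_2, 2 without S1_2 and 3 without S1_1, S3_1 or S3_2. The SCD call held in every case, and calls ended for ACSL4 when LACZ_1 or LACZ_2 was left out (adjusted p 0.0511 to 0.0586), and FASN when LACZ_1, LACZ_2, S1_1 or S1_2 was left out (adjusted p 0.0624 to 0.130).

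**Figure D4:**
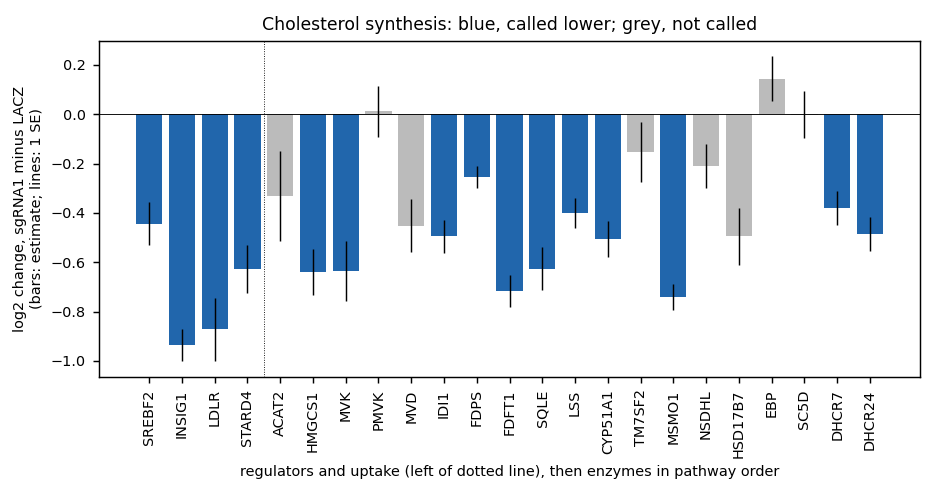
Log2 change (sgRNA1 minus LACZ) with 1 SE for 23 of the cholesterol synthesis genes, regulators and uptake genes first and enzymes in pathway order. Blue bars are 15 genes called lower, from -0.25 for FDPS to -0.94 for INSIG1; grey bars did not pass.

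Heat shock proteins fold other proteins, and HSPA1A, HSPA1B and DNAJA1 are induced by heat shock factor. Of 25 tested cytosolic and mitochondrial chaperones and their regulators 6 rose and 1 fell, and the median log2 change was 0.07. HSPA1A and HSPA1B, near-identical inducible HSP70 genes on chromosome 6 between positions 31815464 and 31830255, rose from 32.2 and 35.4 to 103 and 99.5 TPM (log2 change 1.56, SE 0.08, adjusted p = 0.00145) and from 43.1 and 39.3 to 108 and 107 TPM (log2 change 1.37, SE 0.06, adjusted p = 9.09e-04), and reads may have been shared between them. HSPA8, the constitutive HSP70, rose from 567 and 618 to 1223 and 1202 TPM (log2 change 1.03, SE 0.05, adjusted p = 9.97e-04). DNAJA1, its J-domain partner, rose from 89.6 and 92.3 to 142 and 143 TPM (log2 change 0.64, SE 0.04, adjusted p = 0.00247), and HSPE1, the mitochondrial co-chaperonin, from 403 and 366 to 537 and 570.2 TPM (log2 change 0.52, SE 0.06, adjusted p = 0.0122). HSPB1 (HSP27), a small heat shock protein, fell from 495 and 488 to 334 and 345 TPM (log2 change -0.53, SE 0.03, adjusted p = 0.00244). The HSP90 genes did not pass, with HSP90AA1 at 751 and 737 TPM with LACZ against 846 and 805 TPM with sgRNA1 (adjusted p = 0.0733). The count higher was 4 without LACZ_2 or S1_2, 5 without LACZ_1 or S1_1 and 6 without S3_1 or S3_2, and 12 under median-of-ratios scaling. The HSPE1 call ended when LACZ_2 or S1_2 was left out (adjusted p 0.0511 to 0.0735), and the calls of HSPA1A, HSPA1B, HSPA8, DNAJA1 and HSPB1 held in every case.

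Stretches of 4 of these promoters carry a heat shock element, shown in capitals (RefSeq, GRCh38.p14): chr6:31815429-31815452 and chr6:31827625-31827648 for HSPA1A and HSPA1B and chr9:33025067-33025090 for DNAJA1, all on the plus strand, and chr11:123062171-123062199 on the minus strand for HSPA8, which lies in an exon of at least 1 longer GENCODE 29 transcript.
HSPA1A: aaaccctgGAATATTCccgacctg
HSPA1B: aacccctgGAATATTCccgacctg
DNAJA1: gggctccaGAAGATTCcacgagcg
HSPA8: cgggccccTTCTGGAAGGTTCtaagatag
The first 3 show the pair GAANNTTC, and HSPA8 shows the triplet form. The 250 bases searched for HSPA8 hold 2 triplet matches, of which 1 lies in the stretch shown. The HSPA1A and HSPA1B stretches of 24 bases differ at 1 base. The pair occurred in 434 of the 10318 promoters (4.21%), in 8 of 24 matched chaperone promoters (33.3%) and in 4 of the 6 that rose (66.7%), on either strand.

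Of 31 tested proteasome subunits 8 rose and none fell (median 0.13). PSMB2 and PSMB7, of the catalytic core, rose from 84.7 and 86.7 to 113 and 105 TPM (adjusted p = 0.0293) and from 161 and 159.7 to 205 and 199.7 TPM (adjusted p = 0.0435), and PSMD3, of the regulatory lid, from 213 and 219.7 to 260.0 and 260.4 TPM (adjusted p = 0.0261). The count was 0 without LACZ_1, LACZ_2, S1_1 or S1_2 and 1 without S3_1 or S3_2. Calls ended for PSMB7 when LACZ_1, LACZ_2, S1_1 or S1_2 was left out (adjusted p 0.143 to 0.171), and PSMB2 and PSMD3 when any 1 of the 6 libraries was left out (adjusted p 0.0584 to 0.145). Of 14 subunits of the CCT chaperonin and prefoldin, PFDN6 alone rose (155 and 151 TPM with LACZ against 179 and 178 TPM with sgRNA1, adjusted p = 0.0432), a call that ended when any 1 of the 6 libraries was left out (adjusted p 0.0861 to 0.165).

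DNA replication genes held 10 calls, all higher. Of 43 tested replication genes 10 rose and none fell (median 0.19), while 1 of 30 mitosis genes rose (median 0.06). The difference between these lists was not tested. PCNA, the sliding clamp of DNA polymerases, rose from 298 and 288 to 451 and 459 TPM (log2 change 0.63, SE 0.03, adjusted p = 0.00148). FEN1, which trims Okazaki fragments, rose from 87.2 and 89.8 to 127 and 126 TPM (log2 change 0.51, SE 0.05, adjusted p = 0.00990), and SLBP, which binds histone messengers in S phase, from 61.9 and 59.5 to 92.9 and 95.9 TPM (log2 change 0.63, SE 0.06, adjusted p = 0.00868). The helicase subunit MCM3 rose from 88.5 and 93.1 to 121 and 122 TPM (log2 change 0.41, SE 0.05, adjusted p = 0.0151), and GINS1, of the helicase complex, from 25.5 and 29.2 to 43.97 and 47.4 TPM (log2 change 0.72, SE 0.10, adjusted p = 0.0232). The mitosis gene that rose was UBE2C (276 and 282 TPM with LACZ against 316 and 330.3 TPM with sgRNA1, adjusted p = 0.0447). The replication count was 1 without LACZ_1, LACZ_2 or S1_2, 2 without S1_1 and 5 without S3_1 or S3_2, and 15 under median-of-ratios scaling. The PCNA call held in every case, and calls ended for FEN1, SLBP, MCM3 and GINS1 when LACZ_1, LACZ_2, S1_1 or S1_2 was left out (adjusted p 0.0501 to 0.120), and UBE2C when any 1 of the 6 libraries was left out (adjusted p 0.0853 to 0.181).

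Regulators of the step into S phase were called in both directions. SKP2, the ubiquitin ligase subunit that marks p27 for destruction, rose from 8.88 and 7.71 to 19.6 and 17.99 TPM (adjusted p = 0.00950). The cyclin-dependent kinase inhibitors CDKN1B (p27), CDKN1A (p21) and CDKN2B (p15) fell, CDKN1B from 34.9 and 37.4 to 25.8 and 25.2 TPM (adjusted p = 0.0324), CDKN1A from 30.3 and 32.5 to 20.4 and 19.2 TPM (adjusted p = 0.0243) and CDKN2B from 23.3 and 26.1 to 10.9 and 10.8 TPM (adjusted p = 0.0106). With CCND1 these were 5 calls among 21 tested genes. Among 22 tested p53 targets 4 fell, with GADD45A, a stress sensor, going from 85.2 and 82.8 to 36.8 and 35.5 TPM (adjusted p = 0.00111). The p53 target count was 1 without LACZ_1, LACZ_2, S1_1 or S1_2 and 2 without S3_1 or S3_2, and the GADD45A call held with every library left out. Calls ended for SKP2, CDKN1A and CDKN2B when LACZ_1, LACZ_2, S1_1 or S1_2 was left out (adjusted p 0.0505 to 0.126), and CDKN1B when any 1 of the 6 libraries was left out (adjusted p 0.0595 to 0.146).

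The most abundant gene called was the mitochondrial large ribosomal RNA MT-RNR2, which fell from 7800.1 and 7597 to 4895 and 4706 TPM (log2 change -0.68, SE 0.03, adjusted p = 7.55e-04). Of 13 messenger RNAs of the mitochondrial genome 4 rose and none fell (median 0.12). MT-ND2 and MT-ND1, subunits of complex I, rose from 3234 and 3334 to 4282 and 4143 TPM (log2 change 0.36, SE 0.03, adjusted p = 0.00517) and from 2424 and 2365 to 3304 and 3086 TPM (log2 change 0.42, SE 0.04, adjusted p = 0.00745). The count of messenger RNAs was 1 without LACZ_1 or LACZ_2, 2 without S1_1 or S1_2 and 3 without S3_1 or S3_2. MT-RNR2 and MT-ND2 held with every library left out, and calls ended for MT-ND1 when LACZ_1 or LACZ_2 was left out (adjusted p 0.0596 to 0.0626). With mitochondrial transcripts removed and the rest rescaled, 298 genes were higher and 723 lower. Among genes for ribosome assembly ABCE1, a ribosome recycling factor, rose from 48.7 and 51.8 to 87.1 and 90.04 TPM (log2 change 0.81, SE 0.06, adjusted p = 0.00316), NOP56 from 260.1 and 261 to 347 and 337 TPM (log2 change 0.39, SE 0.04, adjusted p = 0.00777) and IMP3 from 31.01 and 31.2 to 51.9 and 58.4 TPM (log2 change 0.80, SE 0.08, adjusted p = 0.00842), as 3 of 36 tested. Calls ended for NOP56 and IMP3 when LACZ_1 or LACZ_2 was left out (adjusted p 0.0591 to 0.0731). Of 75 cytosolic ribosomal protein genes 3 rose and 2 fell (median 0.01), where 1.87% of all tested genes were higher and 4.76% lower, so these counts are no result about the list. The count higher was 0 without LACZ_1, LACZ_2, S1_1 or S1_2 and 2 without S3_1 or S3_2, and the count lower 0 whichever library was left out. RPL6 rose from 1297 and 1268 to 1524 and 1545 TPM (log2 change 0.26, SE 0.03, adjusted p = 0.0114) and RPL13A fell from 1767 and 1755 to 1521 and 1566 TPM (log2 change -0.19, SE 0.03, adjusted p = 0.0259), and the RPL13A call was lost under median-of-ratios scaling. Both have many processed copies in the genome. The calls ended for RPL6 when LACZ_1, LACZ_2, S1_1 or S1_2 was left out (adjusted p 0.0518 to 0.0699), and RPL13A when any 1 of the 6 libraries was left out (adjusted p 0.0680 to 0.126).

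Of 25 tested keratin and junction genes 11 fell and none rose (median -0.33). KRT18 and KRT19, keratins of simple epithelium and among the most abundant transcripts, fell from 1918 and 1859 to 1500.2 and 1489.8 TPM (log2 change -0.34, SE 0.03, adjusted p = 0.00519) and from 2915 and 2909 to 2488 and 2481 TPM (log2 change -0.23, SE 0.02, adjusted p = 0.00868). CLDN1, a tight junction protein, fell from 88.7 and 87.02 to 50.5 and 47.4 TPM (log2 change -0.83, SE 0.07, adjusted p = 0.00505), CDH1 (E-cadherin) from 137 and 139.5 to 112 and 107 TPM (log2 change -0.33, SE 0.04, adjusted p = 0.0184) and the epithelial factor ELF3 from 127 and 131 to 92.1 and 88.8 TPM (log2 change -0.51, SE 0.06, adjusted p = 0.0148). KRT5, a basal keratin, fell from 60.5 and 61.5 to 38.9 and 33.5 TPM (log2 change -0.74, SE 0.08, adjusted p = 0.0127). The count was 1 without LACZ_1, 2 without LACZ_2, 3 without S1_2, 5 without S1_1 and 6 without S3_1 or S3_2, and 9 under either other scaling, where KRT19 lost its call under median-of-ratios scaling. The KRT18 call held in every case, and calls ended for CLDN1 when LACZ_1 was left out (adjusted p 0.0586), KRT5 when LACZ_1 or LACZ_2 was left out (adjusted p 0.0878 to 0.0911), KRT19 when LACZ_1, LACZ_2 or S1_2 was left out (adjusted p 0.0562 to 0.0652), ELF3 when LACZ_1, LACZ_2, S1_1 or S1_2 was left out (adjusted p 0.0625 to 0.0975), and CDH1 when any 1 of the 6 libraries was left out (adjusted p 0.0542 to 0.103).

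Of 17 tested mesenchymal genes 2 rose and 1 fell (median 0.07), where 1.87% of all tested genes were called higher and 4.76% lower. Counts this small are no result about the list. VIM (vimentin) rose from 1512 and 1548 to 1836 and 1773 TPM (log2 change 0.24, SE 0.03, adjusted p = 0.0174) beside SPARC. SNAI2, a repressor of E-cadherin, fell from 26.3 and 28.5 to 14.04 and 11.9 TPM (log2 change -1.03, SE 0.11, adjusted p = 0.0123). CDH2 (N-cadherin) was at 126 and 119.8 TPM with LACZ against 114 and 105 TPM with sgRNA1 (adjusted p = 0.153). Of the fibroblast markers COL1A1, a fibrillar collagen, fell from 74.8 and 74.02 to 57.4 and 55.5 TPM (adjusted p = 0.0375), and the summed level of the 11 markers was 80.7 and 82.8 TPM with LACZ and 65.6 and 63.1 TPM with sgRNA1. COL1A1 made up most of that sum, and its level was higher than with sgRNA3 (log2 difference 0.60, adjusted p = 0.0436). Calls ended for SNAI2 when LACZ_1, LACZ_2 or S1_2 was left out (adjusted p 0.0639 to 0.0905), and VIM and COL1A1 when any 1 of the 6 libraries was left out (adjusted p 0.0532 to 0.167).

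Identity factors of duct and classical tumour cells fell in 3 of 14 tested cases and rose in 1. SOX9 and GATA6, transcription factors of pancreatic progenitors and ducts, fell from 69.2 and 65.3 to 48.3 and 47.9 TPM (adjusted p = 0.0156) and from 12.8 and 13.1 to 7.56 and 7.24 TPM (adjusted p = 0.0232), and FOXA3 from 8.22 and 8.40 to 3.70 and 3.73 TPM (adjusted p = 0.0205). TSPAN8, a tetraspanin, rose from 19.2 and 19.8 to 29.8 and 28.5 TPM (adjusted p = 0.0174). Of 15 basal-like genes 3 fell and S100A2 rose from 144 and 148 to 209.9 and 193 TPM (adjusted p = 0.0148). The basal-like count lower was 1 without LACZ_1 or LACZ_2, 2 without S1_2 and 3 without S1_1, S3_1 or S3_2. In bulk RNA fewer cells of a kind and less RNA per cell cannot be told apart. Calls ended for S100A2 when LACZ_1, LACZ_2 or S1_1 was left out (adjusted p 0.0546 to 0.0967), SOX9 when LACZ_1, LACZ_2, S1_1 or S1_2 was left out (adjusted p 0.0669 to 0.0963), and GATA6, FOXA3 and TSPAN8 when any 1 of the 6 libraries was left out (adjusted p 0.0516 to 0.118).

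Secreted proteases and their inhibitors fell in 4 of 24 tested cases and rose in 3. PLAU (urokinase), an abundant protease that activates plasminogen, fell from 1629.7 and 1652 to 1238 and 1199.5 TPM (log2 change -0.43, SE 0.03, adjusted p = 0.00308), and TMPRSS4, a membrane serine protease, from 66.2 and 70.3 to 28.2 and 32.1 TPM (log2 change -1.16, SE 0.08, adjusted p = 0.00344). The inhibitors that rose were CST1, TIMP1 from 103 and 104 to 125 and 133 TPM (log2 change 0.32, SE 0.05, adjusted p = 0.0328) and SLPI from 23.8 and 22.6 to 38.1 and 39.7 TPM (log2 change 0.72, SE 0.12, adjusted p = 0.0320). PLAU was also lower than with sgRNA3 (log2 difference -0.36, adjusted p = 0.0197). The count lower was 2 without LACZ_1, LACZ_2, S1_1 or S1_2 and 4 without S3_1 or S3_2. The calls of PLAU and TMPRSS4 held in every case, and calls ended for SLPI when LACZ_1, LACZ_2, S1_1 or S1_2 was left out (adjusted p 0.106 to 0.146), and TIMP1 when any 1 of the 6 libraries was left out (adjusted p 0.0669 to 0.151). Of 26 integrins, laminins and basement membrane genes only ITGB4 and LAMA4 fell, ITGB4 from 223 and 237 to 171 and 157 TPM (adjusted p = 0.0308) and LAMA4 from 6.50 and 4.47 to 1.90 and 1.96 TPM (adjusted p = 0.0405). Those calls ended for ITGB4 when LACZ_1, LACZ_2, S1_1 or S1_2 was left out (adjusted p 0.0801 to 0.144), and LAMA4 when any 1 of the 6 libraries was left out (adjusted p 0.0827 to 0.151).

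Of 1748 tested long noncoding RNA genes 8 rose (0.458%) and 38 fell (2.17%). The largest named decreases were PVT1, from 91.6 and 111 to 37.3 and 28.1 TPM (log2 change -1.61, SE 0.21, adjusted p = 0.0179), LINC01012, from 8.85 and 7.17 to 3.14 and 2.77 TPM (log2 change -1.18, SE 0.21, adjusted p = 0.0354), and TGFB2-OT1, from 46.4 and 36.6 to 16.9 and 19.5 TPM (log2 change -1.14, SE 0.14, adjusted p = 0.0150). TGFB2-OT1 lies inside TGFB2 on the same strand (chromosome 1, 218442626 to 218443996), so its reads and those of TGFB2 may not be told apart. The largest named increases were LINC01963, from 2.32 and 3.11 to 6.64 and 6.01 TPM (log2 change 0.99, SE 0.18, adjusted p = 0.0386), ARHGAP5-AS1, from 19.6 and 18.2 to 29.8 and 29.8 TPM (log2 change 0.63, SE 0.08, adjusted p = 0.0162), and AFAP1-AS1, from 24.9 and 23.4 to 36.9 and 33.9 TPM (log2 change 0.53, SE 0.08, adjusted p = 0.0222). The sources used here do not say whether reads were counted by strand, so antisense genes may hold reads of their partners. Calls ended for TGFB2-OT1 when LACZ_1, S1_1 or S1_2 was left out (adjusted p 0.0694 to 0.0732), PVT1 and ARHGAP5-AS1 when LACZ_1, LACZ_2, S1_1 or S1_2 was left out (adjusted p 0.0572 to 0.109), and LINC01012, LINC01963 and AFAP1-AS1 when any 1 of the 6 libraries was left out (adjusted p 0.0542 to 0.165).

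**Figure D5:**
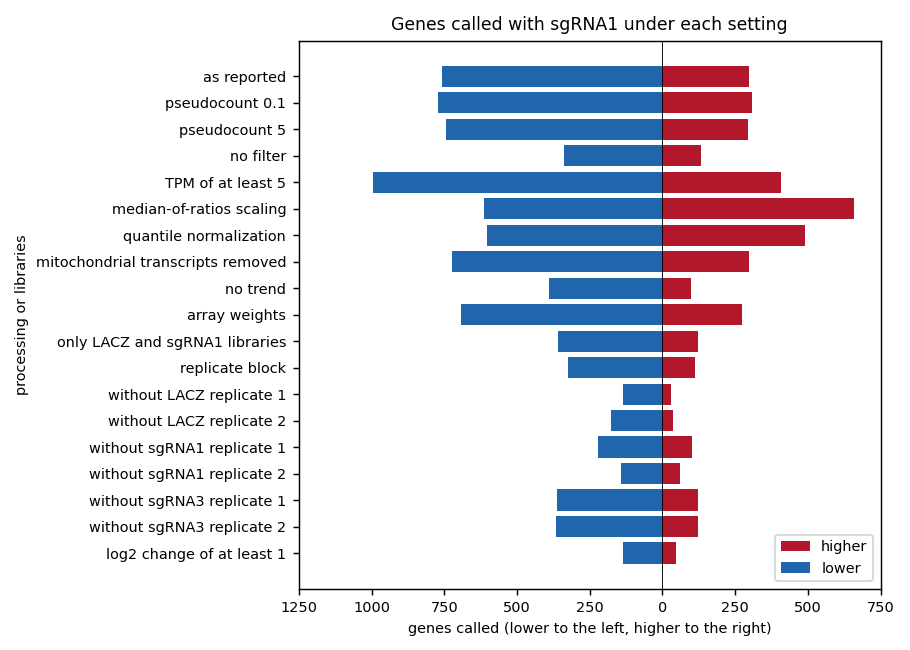
Number of genes called lower (blue, to the left) and higher (red, to the right) under the reported processing and 18 alternatives. The higher count runs from 31 without LACZ_1 to 658 under median-of-ratios scaling, and the lower count from 134 with a minimum log2 change of 1 to 996 with a minimum of 5 TPM.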

How the data were processed

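RNA-seq of CFPAC-1 cells was deposited as TPM values of 6 libraries. Per the submitters' processing notes, the tools were DESeq2 1.24.0, HISAT2 2.1.0 and RSEM 1.3.1, with GRCh38 as genome build and no role or order given. TPM is the authors' deposited unit and carries no depth, so no counting interval is given. The columns carry H1 and H3 where the titles carry S1 and S3, and the guide number matched them. Names, types and positions came from GENCODE 29, which replaced 192 clone names in the table by a symbol.

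Values were taken as log2(TPM + 1), which understates the change of low genes. Genes with at least 1 TPM in at least 2 of the 4 LACZ and sgRNA1 libraries were kept. limma 3.58.1 in R 4.3.3 (files were read by data.table, release 1.17.8) fitted the 3 groups together with an intensity trend (3 residual and 2.43 prior degrees of freedom), and every adjusted p is two-sided with Benjamini-Hochberg adjustment over the 15953 genes of the contrast, with a threshold of 0.05. DESeq2 was not run, since TPM is not a count. The procedure was tested on simulated data.

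The genes named are SULF2 and SULF1, the 15 largest changes in each direction that passed (mean of at least 5 TPM in the higher group, a symbol that is no clone name), the 5 most abundant calls in each direction, 3 long noncoding RNAs in each direction, and up to 6 members per list by smallest p, with exceptions. The 15 genes and the long noncoding RNAs also had to show no overlap between the LACZ and sgRNA1 libraries. FOS, JUN and HSP90AA1 were chosen for their role. Some list members are counted but not reported singly here. The members and the 47 gene lists were chosen with earlier results of these data known, and some lists share members. Promoter windows were the 250 bases before the RefSeq start, and the heat shock triplet was added to the motifs after the data were seen. Alternatives covered the pseudocount, filters, scaling, removal of mitochondrial transcripts, the variance model, the libraries in the fit and leaving out each library, where the lone library of a group is assumed to vary like the others.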

Additional observations from a re-analysis of the deposited data

How the results depend on the processing

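Among the named genes no call changed direction under any alternative. Counts of genes higher and lower, 299 and 759 as reported, were 133 and 337 with no filter on low values, 100 and 389 with no variance trend, 121 and 360 with only the LACZ and sgRNA1 libraries in the fit, and 46 and 134 with a minimum log2 change of 1. The higher count was 658 under median-of-ratios scaling and 491 under quantile normalization, where the lower count stayed within 1.5 times. Leaving out 1 library gave 31 to 124 higher and 136 to 366 lower genes. These settings leave fewer libraries, or test more genes, or ask for a larger change, and for the trend and the scaling the cause was not tested.

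For SULF2 the log2 change of -1.09 no longer passed with no filter (adjusted p = 0.066), no trend (0.0588) or only the LACZ and sgRNA1 libraries (0.0672), and it ranged from -0.86 to -1.33 with a library left out. The replicate numbers did not pair the libraries: the correlation of same-numbered deviations was -0.02 across genes. With the replicate number as a block 111 genes were higher and 324 lower, and SULF2 had a log2 change of -1.09 (adjusted p = 0.0758). TPM gives no depth, so a limit for low genes cannot be set.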

Other observations

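Metabolic and redox genes held scattered calls. Of 23 tested glycolysis genes 3 fell and 1 rose (median -0.00), where 4.76% of all tested genes were called lower and 1.87% higher. Among genes with a mean of at least 37.8 TPM the shares were 9.63% and 4.89%. The glycolysis counts are no result about the list. PGK1, which makes ATP in the pathway, fell from 639 and 638 to 504 and 489 TPM (log2 change -0.36, SE 0.03, adjusted p = 0.00643), ALDOC, an aldolase, from 23.5 and 24.01 to 15.2 and 15.9 TPM (log2 change -0.58, SE 0.08, adjusted p = 0.0227), and LDHA, lactate dehydrogenase, from 1242 and 1221 to 1114 and 1089 TPM (log2 change -0.16, SE 0.03, adjusted p = 0.0369). PFKFB3, which makes the activator of phosphofructokinase, rose from 40.5 and 40.8 to 63.4 and 64.9 TPM (log2 change 0.65, SE 0.06, adjusted p = 0.00807). Of 19 tested genes that hypoxia induces 4 fell, among them VEGFA, DDIT4, BNIP3L from 51.2 and 52.6 to 38.1 and 34.8 TPM (adjusted p = 0.0208) and NDRG1 from 20.1 and 21.5 to 12.3 and 13.6 TPM (adjusted p = 0.0408). Calls ended for PGK1 when LACZ_1 or LACZ_2 was left out (adjusted p 0.0513 to 0.0596), PFKFB3 when LACZ_1, LACZ_2 or S1_2 was left out (adjusted p 0.0630 to 0.0699), and ALDOC, LDHA, BNIP3L and NDRG1 when any 1 of the 6 libraries was left out (adjusted p 0.0502 to 0.173).

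Of 25 tested NRF2 and glutathione genes 3 rose and 2 fell, where 1.87% of all tested genes were called higher and 4.76% lower. FTH1 and FTL, the ferritin chains that store iron, rose from 3089 and 3165 to 3668 and 3829.8 TPM (log2 change 0.26, SE 0.03, adjusted p = 0.0144) and from 2165 and 2129 to 2369 and 2392 TPM (log2 change 0.15, SE 0.02, adjusted p = 0.0308), and both were lower than with sgRNA3 (log2 difference -0.28, adjusted p = 0.0411 for FTH1 and -0.44, 0.0131 for FTL). TXN, thioredoxin, rose from 345 and 355 to 408 and 397 TPM (log2 change 0.20, SE 0.04, adjusted p = 0.0482), and GPX4, the peroxidase that protects lipids, fell from 276 and 293 to 247 and 238 TPM (log2 change -0.23, SE 0.04, adjusted p = 0.0473), beside SLC7A11. Of 24 tested genes of mitochondrial protein import and ribosome assembly 4 rose, the largest by log2 change being TIMM21, a subunit of the inner membrane translocase, from 11.1 and 14.9 to 28.6 and 26.9 TPM (log2 change 1.05, SE 0.17, adjusted p = 0.0323). Of 16 tested circadian clock genes 3 fell, with NR1D1 (REV-ERBα) going from 17.4 and 15.2 to 8.23 and 7.85 TPM (log2 change -0.94, SE 0.12, adjusted p = 0.0162). Among 17 tested mucins and secreted epithelial proteins CEACAM6, an adhesion protein of tumour cells, rose from 29.7 and 31.9 to 43.8 and 41.8 TPM (log2 change 0.46, SE 0.08, adjusted p = 0.0371), beside PI3, SLPI and the decrease of MUC6. The import and ribosome assembly count was 0 without LACZ_1, LACZ_2 or S1_2, 1 without S1_1 and 2 without S3_1 or S3_2, and the clock count 0 without LACZ_1, LACZ_2, S1_1 or S1_2 and 2 without S3_1 or S3_2. Calls ended for FTH1 when LACZ_1, LACZ_2 or S1_2 was left out (adjusted p 0.0687 to 0.0895), NR1D1 when LACZ_1, LACZ_2, S1_1 or S1_2 was left out (adjusted p 0.0670 to 0.0999), and FTL, TXN, GPX4, TIMM21 and CEACAM6 when any 1 of the 6 libraries was left out (adjusted p 0.0520 to 0.188).

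Among the most abundant genes called, TMSB4X, thymosin beta 4, which binds actin monomers, rose from 4443 and 4538 to 5046 and 5276 TPM (log2 change 0.20, SE 0.03, adjusted p = 0.0269), and TPT1, a translationally controlled protein, fell from 2132 and 2069 to 1901 and 1864 TPM (log2 change -0.16, SE 0.03, adjusted p = 0.0386). TMSB4X lost its call under quantile normalization and TPT1 under median-of-ratios scaling, and calls ended for TMSB4X and TPT1 when any 1 of the 6 libraries was left out (adjusted p 0.0534 to 0.154).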
